A study of Saccharomyces cerevisiae with 328 samples.

Results

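The genes described here encode the proteins of the large (60S) subunit of the cytosolic ribosome of budding yeast, Saccharomyces cerevisiae. They were chosen by name: every row whose gene name starts with RPL and a digit, plus the stalk genes RPP0, RPP1A, RPP1B, RPP2A and RPP2B, without RPL7A and RPL7B. That gave 79 genes of the 4922 genes with any value, and each of the 79 had a value in every strain apart from its own deletion, which was left out. PolyA RNA of 328 strains in exponential growth, each lacking 1 gene, had been sequenced with 1 library per strain, and the values are log2 ratios of a deletion strain to the wild type strain. Sorted by what the deleted gene does, 18 strains were small subunit protein deletions, all of genes named RPS. A further 14 were large subunit protein deletions and 7 were deletions of ribosome assembly factors. A further 6 lacked a part of Elongator or of its modification partner URM1, 6 a part of Mediator, 5 a part of the chromatin complexes SWR1 or NuA4, 5 a part of the Rpd3 or Set3 histone deacetylase complexes, and 6 a factor of RNA polymerase II elongation or of its C-terminal domain. All strains outside these 8 classes, the ASC1 deletion among them, were the set each class was compared with and are called the other deletions. No treatment or age is labelled, strain background and mating type are not stated, and each deletion is 1 strain, so strains of a class stand in as its replicates.

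The large subunit holds the peptidyl transferase centre, which joins amino acids, and the exit tunnel through which the new protein leaves. Most of its proteins are encoded in yeast by a pair of near-identical genes left from an ancient duplication of the genome. The promoters of these genes are bound by Rap1 with Fhl1 and its partner Ifh1, and by Hmo1 at many of them, and they are known for being adjusted together with growth through the TOR and protein kinase A pathways. Surplus ribosomal protein is degraded, so that supply of both subunits normally runs side by side.

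The 79 genes were 34 pairs of copies and 11 genes without a second copy among the members. They lie on 14 chromosomes, 13 of them on chromosome IV, and 51 have an intron within the coding sequence in the R64 annotation. Coding lengths ran from 78 bases in RPL41A and RPL41B to 1164 in RPL3. The 2 copies of a pair had 68.2% to 99.4% identical coding bases, with a median of 93.2%. Sequencing ran for 50 cycles, and the median pair shared 8.71% of its 50-base coding windows exactly, while RPL1A and RPL1B shared 81%, the largest share. How the authors counted reads that match both copies is not given in the labels, so values of such near-identical copies are uncertain. The ends of the coding sequences of 3 pairs show how much or how little separates copies that are compared in what follows. They are from the R64 reference, 5′ to 3′ on the coding strand, with the bases that differ between the copies in capitals. The deposited files name no genome build, and the positions serve only to place these sequences.
RPL12A, chrV:52721-52780, minus strand: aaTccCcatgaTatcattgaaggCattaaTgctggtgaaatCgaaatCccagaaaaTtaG
RPL12B, chrIV:1302054-1302113, plus strand: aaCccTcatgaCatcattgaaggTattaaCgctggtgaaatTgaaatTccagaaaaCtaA
RPL9A, chrVII:227754-227813, minus strand: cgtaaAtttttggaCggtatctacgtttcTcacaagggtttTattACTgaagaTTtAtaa
RPL9B, chrXIV:500197-500256, plus strand: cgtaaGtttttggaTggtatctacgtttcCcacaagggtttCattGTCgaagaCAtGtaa
RPL41A, chrIV:130407-130484, minus strand: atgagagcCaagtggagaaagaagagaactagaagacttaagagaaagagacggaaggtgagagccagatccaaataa
RPL41B, chrIV:221724-221801, minus strand: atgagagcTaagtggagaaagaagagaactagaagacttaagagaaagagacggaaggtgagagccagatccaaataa
RPL12A and RPL12B differ at 9 of these 60 bases and RPL9A and RPL9B at 10 of 60. The whole coding sequences of RPL41A and RPL41B, the shortest members, differ at 1 base.

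The 500 bases before each start codon were searched on both strands for the letters ACCCNNACA, a core of the Rap1 site, and GACGCA, a core reported for Fhl1. ACCCNNACA stood in 35 of the 79 members' windows, or 44.3%, and in 5.44% of the windows of all 6025 genes. GACGCA stood in 19% of the members' windows and in 10.9% of all windows. The 200 bases below belong to RPL33B and RPL36A, 2 of the members that followed the rest most closely, and to RPL8A and RPL9B, which were low in several large subunit deletions. ACCCNNACA and GACGCA are in capitals. These motifs do not overlap where they are marked.
RPL33B, chrXV:779706-779905, minus strand, ending 300 bases before the start codon: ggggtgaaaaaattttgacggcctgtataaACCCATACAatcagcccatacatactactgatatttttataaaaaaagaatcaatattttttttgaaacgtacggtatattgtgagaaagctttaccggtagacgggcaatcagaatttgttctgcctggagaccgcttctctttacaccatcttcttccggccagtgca
RPL36A, chrXIII:650887-651086, plus strand, ending 58 bases before the start codon: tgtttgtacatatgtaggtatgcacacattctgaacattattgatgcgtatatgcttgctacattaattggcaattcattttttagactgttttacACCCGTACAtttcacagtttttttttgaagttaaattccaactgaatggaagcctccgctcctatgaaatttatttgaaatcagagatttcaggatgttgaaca
RPL8A, chrVIII:36161-36360, minus strand, upstream of the start codon: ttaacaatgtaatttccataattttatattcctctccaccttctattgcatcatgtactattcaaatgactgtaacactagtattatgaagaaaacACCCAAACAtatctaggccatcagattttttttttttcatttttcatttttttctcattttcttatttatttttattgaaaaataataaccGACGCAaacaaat
RPL9B, chrXIV:499416-499615, plus strand, ending 65 bases before the start codon: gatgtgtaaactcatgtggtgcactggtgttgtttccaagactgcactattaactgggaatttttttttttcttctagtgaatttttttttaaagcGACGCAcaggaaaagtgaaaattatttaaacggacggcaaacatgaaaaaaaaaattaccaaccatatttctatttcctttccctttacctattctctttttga
A match is a description of the letters. RPL9B had no ACCCNNACA in its window, and nothing about binding follows from that. RPL30, RPL32, RPL11A and RPL6A, which also followed the rest closely, had none either. The median correlation with the other members, within the library groups described below, was 0.49 with these letters and 0.40 without.

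The libraries were not alike before any class was considered. Principal components of genes that encode no cytosolic ribosomal protein were used to sort the strains into 4 groups of libraries (80, 73, 96 and 79 strains). The number of groups was set and not estimated. The labels do not name these groups, and their origin is unknown. Of 79 members, 43 had over 50% of their variance between these 4 groups; the median was 54.3%, beside 25.3% over the 4499 genes tested. Each comparison is therefore also given with the library group as a term of the fit. Some labels also went against the values, with 64 strains having the deleted gene lowered by less than 0.5 from its median over all strains, 30.2% of the strains in which it was measured. The library labelled PEP8 resembled that of the RPP1A deletion (r = 0.831 over 4499 genes after subtracting library group means, where the next most similar pair of strains reached 0.605), and RPP1A was at -3.43 in it. The library labelled RPO41 had RPL22B at -4.37, while RPO41 itself was not lowered. In the YPL080C and YLR184W deletions, whose systematic names adjoin those of RPL21B and RPL37A, RPL21B was at -2.23 and RPL37A at -0.81. A chromosome stood at least 0.4 from the rest of the genome in 17 strains. Depth per library is unknown.

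Across all strains the members kept to a narrow band. The median of a gene over the strains ran from -0.79 for RPL8A to 1.27 for RPL41A, and 41 of the 79 medians were below 0. RPL41A, which encodes the smallest ribosomal protein, ranged from 0.37 in the SIN3 deletion to 2.27 in the SRB8 deletion and so was above wild type in every strain. The next highest medians were those of RPL42B at 0.71, RPL40B at 0.67, RPL42A at 0.65, RPL26B at 0.53 and RPL34B at 0.45. RPL40A and RPL40B encode a fusion of ubiquitin with a ribosomal protein. At the low end RPL8A was followed by RPL21A at -0.71, RPL36A at -0.67, RPP2B at -0.64, RPP2A at -0.62 and RPL24B at -0.62. RPP2A and RPP2B encode acidic proteins of the stalk, which recruits the elongation factors. RPL8A was below wild type in every strain, from -2.72 to -0.27. The 51 genes with an intron had a median of -0.05 and the 28 without one a median of 0.00.

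**Figure D1:**
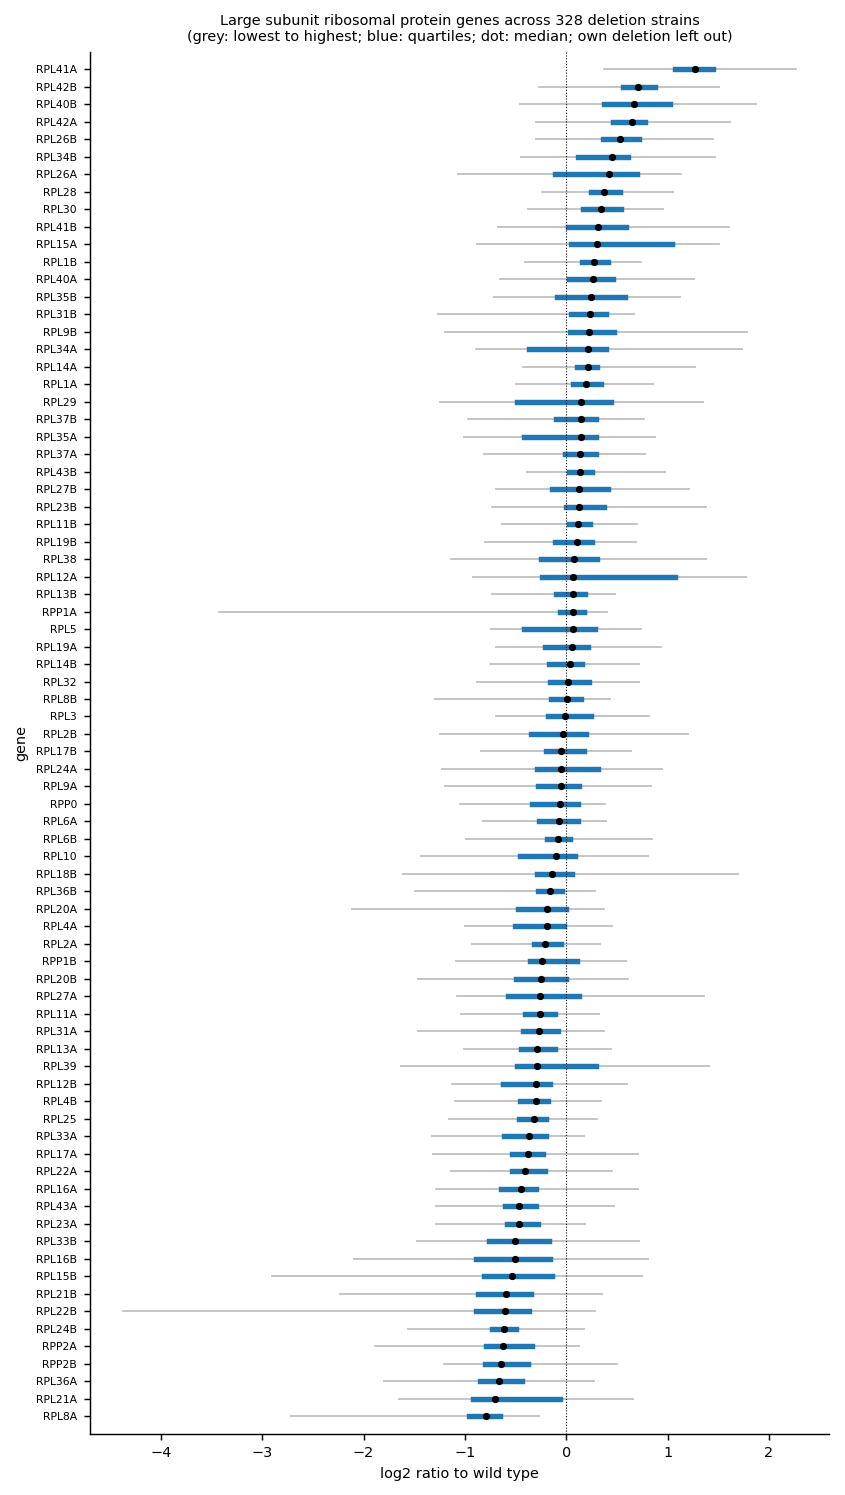
Log2 ratio to wild type (x axis) of 78 of the large subunit genes (y axis, ordered by median) over the deletion strains, with grey lines from the lowest to the highest strain, blue bars over the quartiles and dots at the medians. Medians lie between -0.79 and 1.27, and long tails such as those of RPL22B, RPP1A and RPL8A come from few strains.

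A member's SD over strains had a median of 0.31, beside 0.47 for all tested genes. RPL12A had the largest, 0.69, followed by RPL16B at 0.55, RPL29 at 0.55, RPL15A at 0.53, RPL15B at 0.52 and RPL21A at 0.52. Among the steadiest were RPL11B and RPL1B, both at 0.17, RPL14A at 0.19, RPL6B at 0.19 and RPL2A at 0.20. RPL11B encodes a protein that enters the ribosome together with the 5S RNA, and RPL1B a protein of the mobile stalk beside the tRNA exit site. Differences between library groups held 93.3% of the variance of RPL12A, 88.7% of that of RPL15A, 88.2% of RPL5, 85% of RPL10 and 83.7% of RPL29. In contrast, they held 3.00% of the variance of RPL36B, 4.95% of RPL4B, 5.44% of RPL14A, 6.38% of RPL41A and 9.78% of RPL8A, whose spread lay between strains of the same group.

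Copies of the same protein could move in opposite directions between library groups. RPL12A, for a protein at the base of the stalk, averaged -0.33, 0.22, 1.27 and -0.21 in the 4 library groups, while RPL12B averaged -0.12, -0.29, -0.73 and -0.27. RPL35A averaged 0.26, 0.28, -0.62 and 0.20, and RPL35B 0.02, 0.29, 0.75 and -0.16. In both pairs one library group of 96 strains stood apart, with the copies on opposite sides of 0. The correlation between copies over all strains was -0.72 for RPL12A and RPL12B, -0.53 for RPL35, -0.43 for RPL15, -0.39 for RPL9, -0.23 for RPL21 and -0.03 for RPL14, the 6 lowest of the 34 pairs. After subtracting the library group means these values were 0.33, 0.64, -0.23, -0.03, 0.58 and 0.14. The points share wild type and library group, so the numbers describe these libraries. RPL35A and RPL35B share 80.6% of their 50-base windows, so their opposite values may depend on how shared reads were assigned, which was not tested. RPL12A and RPL12B share 10.5%.

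**Figure D2:**
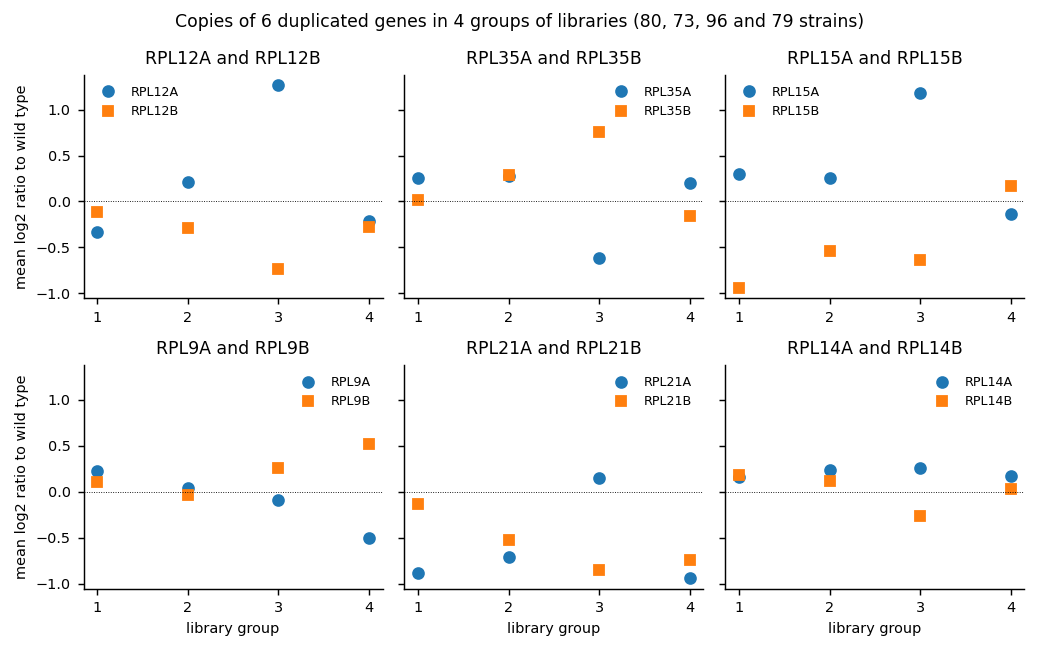
Mean log2 ratio to wild type (y axis) of the 2 copies of 6 duplicated genes in each of the 4 library groups (x axis, in no order), with circles for the A copy and squares for the B copy. In the group of 96 strains RPL12A is at 1.27 and RPL12B at -0.73, while RPL35A is at -0.62 and RPL35B at 0.75.

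The levels of 2 copies relative to wild type also differed over all strains. The median of RPL41A exceeded that of RPL41B by 0.96, and that of RPL15A exceeded RPL15B by 0.84. For RPL8 the order was the other way, with RPL8A 0.79 below RPL8B. The other pairs of the 6 most unequal were RPL43, with the A copy lower (-0.47 against 0.14), RPL23 (-0.47 against 0.13) and RPL24, with the A copy higher (-0.05 against -0.62). Since these are ratios to wild type, they say nothing on which copy is the more abundant.

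Within library groups the members varied together. The correlation of a gene with the mean of the other members, after subtracting library group means, was positive for 78 of 79 genes and had a median of 0.45 over 328 strains. RPL30, whose protein represses splicing of its own transcript, had the highest value, 0.72, followed by RPL32 at 0.72 and RPL36A at 0.70. RPL15B was the exception at -0.21. Without subtracting the group means the 6 highest were RPL32 at 0.83, RPL36A at 0.79, RPL33B at 0.79, RPL11A at 0.74, RPL20B at 0.74 and RPL6A at 0.71. The 6 lowest were RPL15B at -0.53, RPL9B at -0.27, RPL12A at -0.19, RPL31B at -0.11, RPP1B at -0.04 and RPL21A at -0.01. RPL21A and RPL31B reached 0.56 and 0.60 within groups. RPL9B stayed low at 0.10. RPL8A was at 0.27, and several other members were lower than that, among them RPL16B at 0.12, RPL18B at 0.14 and RPP2B at 0.15.

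The 5 stalk genes followed the other members loosely, as did some members outside the stalk, such as RPL34A at 0.155 and RPL14B at 0.165 within groups. RPP0, the base to which the other stalk proteins bind, had a correlation of 0.17 with the other members within groups. RPP2B was at 0.15, RPP2A at 0.25, RPP1B at 0.34 and RPP1A, with the library labelled PEP8 included, at 0.29. Their medians over strains were -0.06 for RPP0, 0.07 for RPP1A, -0.24 for RPP1B, -0.62 for RPP2A and -0.64 for RPP2B. Among the 11 genes without a second copy, which include RPL3, RPL5, RPL10, RPL25, RPL28, RPL30 and RPL32, medians ran from -0.32 for RPL25 to 0.38 for RPL28.

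The mean over the members summarised each strain. It had a median of -0.06 over the 328 strains and quartiles of -0.13 and 0.03, and 66.5% of the strains were below 0. The mean of the 56 small subunit genes followed it, with r = 0.92 over all strains and 0.87 within library groups. The mean of 20 stress-induced genes ran against it (-0.57 and -0.58), as did the strain's median over all tested genes (-0.46 and -0.59). Assembly factor genes of the large subunit followed it weakly (0.08 over all strains and 0.29 within groups, 61 of 64 genes measured), as did genes of translation factors (0.36 and 0.33). The transcripts of 14 measured regulators of ribosomal protein genes gave -0.41 and -0.36. The 2 measured genes of dedicated chaperones of large subunit proteins gave 0.05 and 0.12. All these points share the same libraries and the same wild type.

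The lowest mean, -0.64, was that of the library labelled THP1. THP1 and SAC3 encode parts of TREX-2, which couples transcription to mRNA export, and the SAC3 deletion was also among the lowest at -0.38. In both strains 77 of the 79 genes were below their library group mean, so the shift ran through nearly the whole list. In the library labelled THP1 the strongest deviations were RPL40B (0.83 below its group mean), RPL36A (0.80 below) and RPL18B (0.80 below), and RPL15B and RPL9B were the 2 genes above. SAC3 itself was 2.14 below its median in its deletion, but THP1 was 0.96 above its median in the library that carries its name, so that the label goes against the value. The medians of all tested genes in these 2 strains were 0.31 and 0.25, among the highest, so the members were lower by 0.95 and 0.63 when set against the rest of the transcripts of their own libraries.

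The other low strains were KRE28 at -0.39, with chromosome VIII raised by 0.70, BUD27 at -0.32, RPP2B at -0.30, VRP1 at -0.29, MEH1 and SLA1 both at -0.29, GCR2 at -0.28 and RPL37A at -0.28. MEH1 encodes a part of the EGO complex, which activates TORC1, and GCR2 an activator of glycolytic genes. All 10 lowest strains were in library group 4, whose mean was -0.16 (SD 0.11, n = 79). The 10 highest were RPS1B at 0.28, RPS4B at 0.26, YJR015W at 0.23, RHO4 at 0.22, GPB2 at 0.22, KGD1 at 0.22, PIH1 at 0.20, YJL218W at 0.19, RPS24A at 0.19 and CBF1 at 0.19. They were in the first 2 library groups, with means of 0.05 and 0.02. RPS1B, RPS4B and RPS24A are small subunit genes, and in the RPS4B deletion 0 of the 79 members were below their library group mean. Every strain is 1 library, so none of these values carries an error of its own. The YJR015W and RHO4 libraries were also alike (r = 0.591 over 4499 genes after subtracting library group means).

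Among single deletions of regulators, RAS2, which activates adenylate cyclase, gave 0.18. GPA2, a G protein subunit of the glucose sensing pathway, gave 0.04, and GPB2, its partner, 0.22. The EGO and SEACAT genes gave -0.29 for MEH1, -0.16 for GTR2 and -0.07 for MTC5. Deletion of HMO1, for a protein that binds many of these promoters, gave -0.19, close to its library group mean (0.03 below it). That mean hid members that moved both ways. As deviations from library group means, RPL8A was at -1.69, RPL9B at -0.99 and RPL31B at -0.87 in the HMO1 deletion. RPL35B was at 0.68, RPL38 at 0.67 and RPL26B at 0.565. Deletion of TOD6, for a repressor of ribosome biogenesis genes, gave 0.00. TAF14 gave -0.19, and RPN4, an activator of proteasome genes, -0.10. These are single values with no replicate. The GPB2 and RAS2 libraries were the most alike pair after PEP8 and RPP1A (r = 0.605 over 4499 genes after subtracting library group means). Their values may not be separate observations.

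When a small subunit protein was missing, a few large subunit genes rose, and the list as a whole stood slightly higher in nearly all strains of the class. The strain mean over members was 0.04 ± 0.13 in the small subunit deletions (SD, n = 18), against -0.05 ± 0.13 in the other deletions (SD), and the 2 sets of strains overlapped widely, from -0.14 to 0.28 and from -0.64 to 0.23. Set against library group means, 17 of 18 small subunit deletions were above, RPS10B being the exception, and so were 49% of the other deletions. The transcript of the deleted gene was not lowered in 4 of the 18, the libraries labelled RPS1A, RPS10B, RPS16A and RPS19B, and without all strains of that kind 9 members were called. Within the 4 library groups the class was higher by 0.16, 0.18, 0.11 and 0.11, with 2, 3, 9 and 4 strains.

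**Figure D3:**
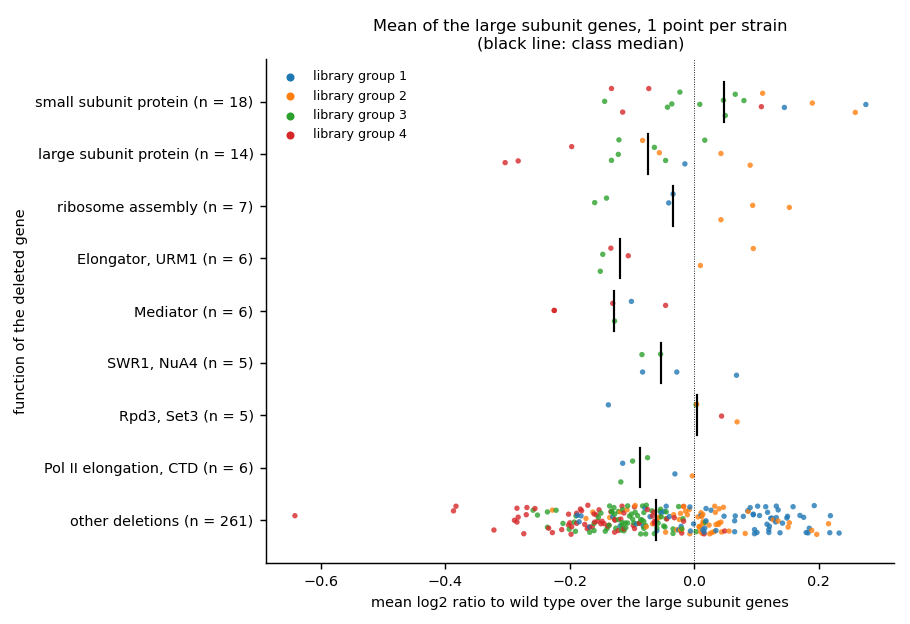
Mean log2 ratio to wild type over the large subunit genes (x axis), 1 point per strain, for each class of deleted gene (y axis), coloured by library group, with a black line at the class median. The small subunit deletions have a median of 0.05 and the other deletions one of -0.06, and the lowest point, at -0.64, is the library labelled THP1.

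In the limma fit, 5 of the 79 members passed an adjusted p of 0.05 as higher in the small subunit deletions and 0 as lower, with 6.33% of members higher beside 0.356% of all 4499 genes. Of all genes 1.58% were called lower. At an unadjusted p of 0.05, 29 of the 79 passed. The share of all genes at that threshold was not counted. Such unadjusted counts, here and below, are therefore not read as results about the members. Of all genes called, 18.4% were higher, and 45.7% when each strain was centred on its median, where 4 members were called higher and 0 lower. The median difference was 0.07 over the members and -0.07 over all genes. With the library group as a term 25 members were higher and 0 lower, beside 1.18% of all genes higher and 2.62% lower, and the medians were 0.13 and -0.05. The 5 called in both fits were RPL25, RPL43B, RPL14A, RPL2B and RPL1A. Left out in turn, RPS9B, RPS16A and RPS19B each gave 12 calls without the library group, and RPS11A, RPS23A, RPS28B, RPS30A, RPS29A, RPS10B and RPS30B each gave 3. In the fit with the library group the count was 16 without RPS11A. Each class has 1 library per strain, so p-values measure the spread between different deletions. All classes were set against the same other deletions, so their comparisons share those strains.

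RPL25 encodes the protein at the tunnel exit where the signal recognition particle docks. It ran from -0.46 through a median of 0.00 to 0.22 in the small subunit deletions, against -1.16 through -0.33 to 0.26 in the other deletions. The sets overlapped, but 16 of 18 small subunit deletions were above the median of the others. The log2 difference was 0.31 ± 0.06 (SE, limma adjusted p = 0.00049), and it was 0.25 ± 0.05 with the library group as a term (adjusted p = 0.00129).

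RPL43B ran from 0.06 through 0.36 to 0.98 in the small subunit deletions and from -0.39 through 0.13 to 0.81 in the other deletions. Most of the class, 15 of 18, lay above the others' median, with overlap. Set against library group means the rise was uneven. RPS11A, RPS29A, RPS28B and RPS30B were highest at 0.74, 0.68, 0.52 and 0.50, while RPS9B, RPS21A, RPS30A, RPS1A and RPS16A were below 0. The RPL43B difference was 0.25 ± 0.05 (SE, limma adjusted p = 0.000842).

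RPL2B, for a protein next to the peptidyl transferase centre, had 0.20 as its median in the small subunit deletions (-0.36 to 0.86), against -0.05 in the other deletions (-1.24 to 0.76). The difference of 0.30 ± 0.09 (SE) had a limma adjusted p of 0.0363, and 13 of 18 strains were above the others' median. RPL1A had 0.36 (-0.02 to 0.86) in the class and 0.20 (-0.50 to 0.68) in the other deletions, a difference of 0.19 ± 0.05 (SE, limma adjusted p = 0.0369). Both genes overlapped widely between the sets, and these 2 calls were close to the threshold. Centring each strain on its median gave adjusted p-values of 0.0571 for RPL2B and 0.0501 for RPL1A, and leaving out single strains took each above it in 9 of 18 cases.

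RPL14A had a median of 0.34 (0.16 to 1.27) in the small subunit deletions, against 0.20 (-0.43 to 1.19) in the other deletions, a difference of 0.20 ± 0.05 (SE, limma adjusted p = 0.00667). The sets overlapped, and the highest value of the class came from the RPS27B deletion, where chromosome XI, which carries RPL14A, was raised by 0.83. Without the RPS27B deletion the difference was 0.15 and the adjusted p 0.0645. RPL17A and RPL40B, also on chromosome XI, were 1.16 and 1.11 above their library group means in that strain. In the RPS24A deletion, with chromosome IX raised by 0.71, RPL40A, RPL34B and RPL2B on that chromosome were 0.94, 0.89 and 0.78 above theirs. Without the RPS24A deletion the RPL2B difference was 0.285 and its limma adjusted p 0.0582, and without all strains with a shifted chromosome it was 0.296, also with an adjusted p of 0.0582. In the fit with the library group, leaving out the RPS24A deletion gave limma adjusted p-values of 0.0173 for RPL2B, 0.12 for RPL16A and 0.211 for RPL34B, all on chromosome IX, and leaving out the RPS27B deletion gave 0.113 for RPL14A.

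The largest rises in the fit with the library group were those of RPL36A (0.30 ± 0.06, limma adjusted p = 0.000881) and RPL27B (0.29 ± 0.07, adjusted p = 0.00408). RPL25, RPL41B (0.25 ± 0.07, adjusted p = 0.0149), RPL9A (0.24 ± 0.05, adjusted p = 0.00164) and RPL29 (0.24 ± 0.05, adjusted p = 0.00253) followed. RPL10, whose protein completes the subunit late in its maturation, rose by 0.23 ± 0.05 (adjusted p = 0.000528), and RPL28 by 0.19 ± 0.04 (adjusted p = 0.000881). For RPL29 and RPL35A this rise appeared only when the library group was taken into account, their differences without it being -0.03 and 0.00. At the other end RPL15B (-0.10), RPL9B (-0.07), RPL22B (-0.06), RPL4B (-0.04), RPP0 (-0.04) and RPL8A (-0.02) had values below 0 in that fit, and none of them was called.

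**Figure D4:**
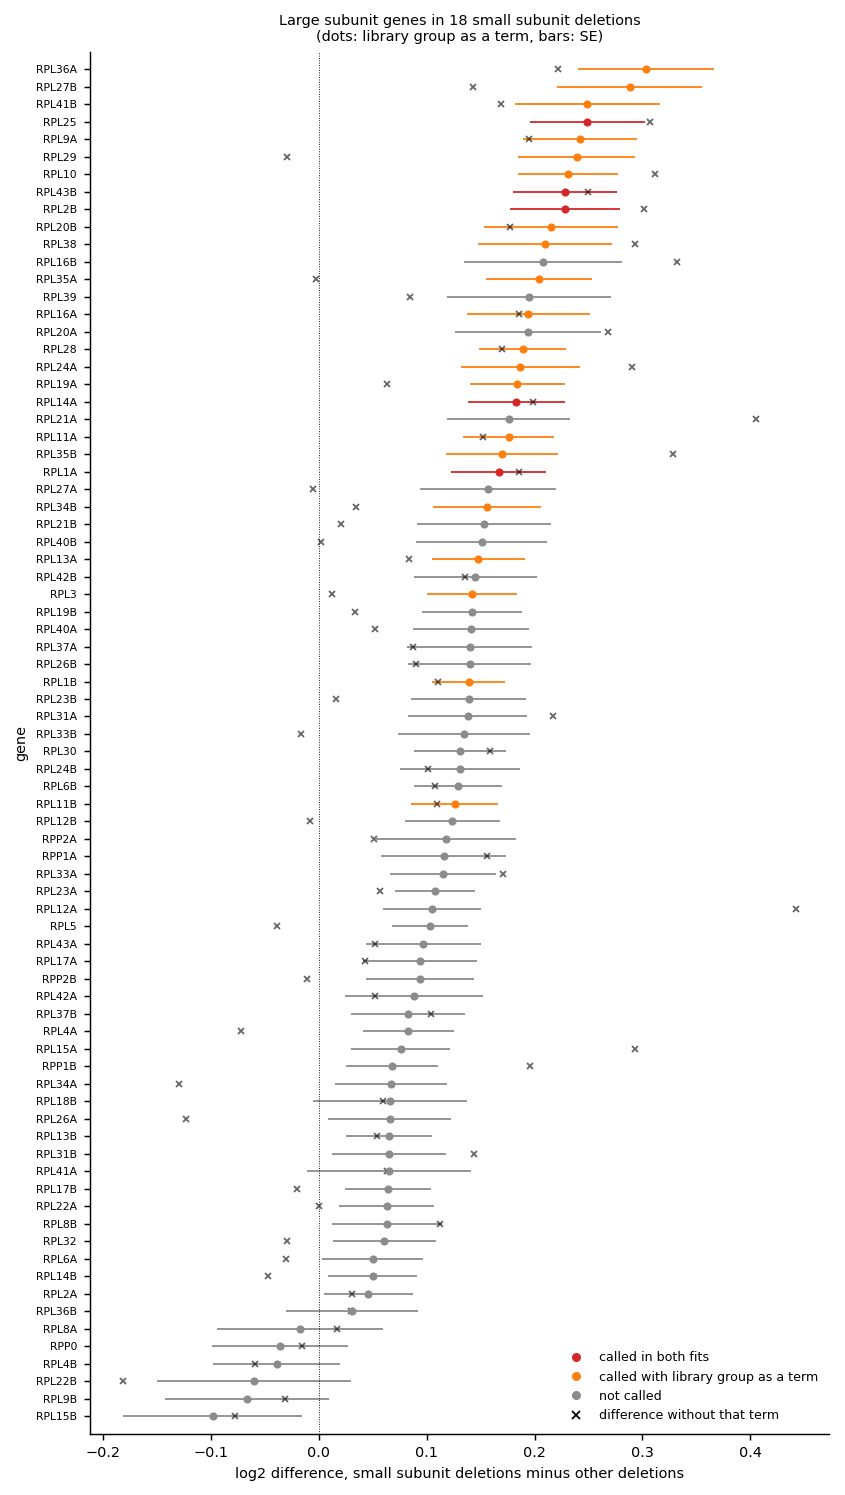
Log2 difference of 78 large subunit genes (y axis) between the small subunit deletions and the other deletions (x axis), with dots and SE bars from the fit with library group as a term and crosses for the difference without it. Red marks genes called in both fits and orange those called with the term, and 72 of 78 dots lie above 0.

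Small subunit genes moved much as the large subunit genes did in the same strains. Of the 56 small subunit genes 4 were higher and 2 lower, beside 5 and 0 of the 79 large subunit genes, and the median differences were 0.06 and 0.07. In the fit with the library group 15 of the 56 were higher and 3 lower, and both medians were 0.13. Of 61 assembly factor genes 0 were called in either direction by limma (2 higher with the library group as a term, NOC3 and MRT4), and the median was 0.05. The 27 translation factor genes had 0 calls in both fits, and so did the 14 regulators and the 2 measured chaperone genes. Of 20 stress-induced genes 2 were lower, HSP78 and HSP104, and the median was -0.30. Of the 20, 18 had values below 0, and their part in the result was not tested. Fewer cells of a kind and less RNA per cell cannot be told apart in such libraries of whole cultures.

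When a large subunit protein was missing, the members as a list showed no common direction. The strain mean was -0.09 ± 0.11 in the large subunit deletions (SD, n = 14) and -0.05 ± 0.13 in the other deletions (SD). The median difference over the members was -0.04 and over all genes 0.00, with 31 of 79 members above 0. Limma called 0 members higher and 1 lower, beside 0.0445% of all genes higher and 0.178% lower. At an unadjusted p of 0.05, 12 of the 79 passed, again without a count over all genes. With the library group as a term 0 were higher and 2 lower, beside 0.111% and 0.178% of all genes.

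The gene that fell was RPL8A. It was at -2.59 in the RPP2B deletion, -2.11 in RPL37A, -1.86 in RPL19A, -1.80 in RPL6B, -1.77 in RPL37B, -1.48 in RPL29 and -1.40 in RPL9A, with a median of -1.40 over the 13 strains that keep the gene. The RPL16B, RPL13A and RPL11B deletions followed at -1.32, -1.26 and -1.09, and RPP1A, RPL21B and RPL19B were the highest at -0.91, -0.75 and -0.73. In the other deletions it ran from -2.72 through -0.76 to -0.27. The sets overlapped at the low end, but 11 of 13 large subunit deletions were below the others' median. The difference was -0.65 ± 0.10 (SE, limma adjusted p = 3.07e-07), and it was -0.67 ± 0.09 with the library group as a term (adjusted p = 2.98e-09). Within the 4 library groups it was -1.01, -0.81, -0.44 and -0.85, with 1, 3, 6 and 3 strains. Its copy RPL8B was not called, with a difference of 0.06 ± 0.07 (SE, limma adjusted p = 0.865). In the RPL8A deletion, whose own value was left out, RPL8A was at -1.44, rank 22 from the lowest of all strains. Strains that keep the gene, such as the RPP2B and RPL37A deletions, thus read lower than the strain labelled as lacking it. The reason was not tested.

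RPL9B was also low in several of these strains. It was at -1.20 in the RPL19A deletion, -1.06 in RPL6B, -0.94 in RPL37B and -0.62 in RPP2B, and had a median of -0.38 over the 14 strains, against 0.24 in the other deletions (-1.12 to 1.02). It was at 1.78 in the deletion of its own copy RPL9A and above 0 in 5 of the 14 strains. The difference was -0.38 ± 0.10 (SE, limma adjusted p = 0.0786). It was -0.38 ± 0.09 with the library group as a term (adjusted p = 0.00671), and -0.52 when the copy of each deleted gene, and so RPL9B in the RPL9A deletion, was set to missing (adjusted p = 0.000278, an alternative added after seeing the data). In the fit with the library group the call of RPL9B was lost without RPL19A, RPL37B, RPL6B or RPP2B. Its copy RPL9A was not called, with a difference of 0.01 ± 0.10 (SE, limma adjusted p = 0.989).

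In the assembly factor deletions RPL8A and RPL9B again had low values, and RPL8A fell in the fit with the library group. RPL8A was at -2.07 in the LRP1 deletion, -1.77 in JJJ1, -1.41 in RRP6, -1.26 in NOP12, -1.17 in SSF1, -1.14 in TMA23 and -0.61 in TSR2. LRP1 and RRP6 belong to the nuclear exosome, JJJ1 acts in late cytoplasmic maturation of the large subunit, SSF1 and NOP12 act on its early precursors, and TSR2 serves the small subunit. All but the TSR2 deletion were below the median of the other deletions. The difference was -0.52 ± 0.13 (SE, limma adjusted p = 0.092), and it was -0.56 ± 0.12 with the library group as a term (adjusted p = 0.00704), a call lost without the LRP1 or the JJJ1 deletion. In the LRP1 deletion chromosome IX was raised by 0.92, and RPL8A lies on chromosome VIII. Without the library group and without TSR2, 1 member was called. RPL9B ran from -0.60 to 0.11 in these strains, and 7 of 7 were below the other deletions' median of 0.24. Without the library group limma called 0 members in this class in either direction, beside 0.0445% of all genes higher and 0.00% lower, and 4 members had an unadjusted p under 0.05. With it, 1 member was lower, beside 0.0667% of all genes.

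RPL8A and RPL9B were often low in the same strains. Their deviations from library group means had r = 0.56 over 327 strains, and RPL9B was the member most like RPL8A by this measure, ahead of RPL4B at 0.53. Of the 25 strains with the lowest RPL8A and the 25 with the lowest RPL9B, 14 were in both sets. The 21 strains lacking a large subunit protein or an assembly factor gave 10 of the 25 lowest for RPL8A and 11 of the 25 lowest for RPL9B. Outside those classes, as the labels sort them, low RPL8A values included those of HMO1 at -2.72, SLM6 at -2.54, BUD27 at -2.14 and PHO5 at -1.83. The YNL226W and YPL080C deletions, whose systematic names adjoin those of JJJ1 and RPL21B, were counted among the other deletions. They had RPL8A at -1.56 and -1.43 and RPL9B at -0.38 and -0.43. The overlap was partial, as 11 of the 25 strains lowest in RPL8A were not among the 25 lowest in RPL9B. In the RPL9A deletion RPL8A was low at -1.40 while RPL9B was at its highest. As deviations from library group means, the libraries labelled BUD27, URM1 and EAF1 had RPL8A at -1.12, -0.64 and -0.54, with RPL9B at -0.05, 0.00 and 0.19. The deleted gene was not clearly lowered in these libraries, at -0.155, 0.097 and 0.24 relative to its median.

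**Figure D5:**
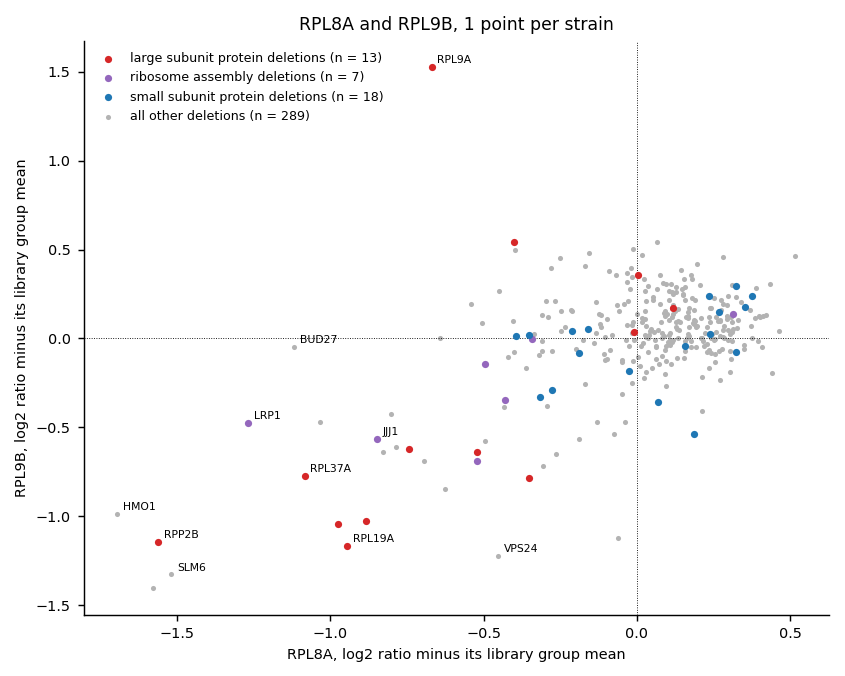
RPL8A (x axis) against RPL9B (y axis), each as log2 ratio minus its library group mean, 1 point per strain. Large subunit (red) and assembly (purple) deletions make up much of the lower left, where both genes are low, and the RPL9A deletion stands alone at the top with RPL9B 1.53 above its group mean.

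The 2 classes of ribosomal protein deletion were also compared with each other. Small subunit deletions had 3 members higher than large subunit deletions and 0 lower by limma, beside 0.111% of all genes higher and 0.0667% lower, and 19 of the 79 had an unadjusted p under 0.05. With the library group as a term 7 were higher and 0 lower, beside 0.289% and 0.533% of all genes. RPL8A differed by 0.66 ± 0.12 (SE, limma adjusted p = 0.000185), with medians of -0.82 in the small subunit deletions and -1.40 in the large subunit deletions. RPL1A differed by 0.32 ± 0.08 (adjusted p = 0.0389), with medians of 0.36 in small subunit deletions and 0.08 in large subunit deletions. RPL1B differed by 0.26 ± 0.06 (adjusted p = 0.0389), with medians of 0.37 in small subunit deletions and 0.11 in large subunit deletions. RPL8A alone was called when RPS11A, RPS1B, RPS25A, RPS27B, RPS28B, RPS29A, RPS30B, RPL16B, RPL19A, RPL37A, RPL6B, RPL8A or RPP2B was left out, and 2 members were called without RPL9A, RPS10B, RPS23A or RPS4B. In the fit with the library group the count was 11 without RPL29. The added calls with the library group as a term were RPL10 (0.32 ± 0.07, adjusted p = 0.00172), RPL2B (0.30 ± 0.07, adjusted p = 0.0139), RPL28 (0.28 ± 0.06, adjusted p = 0.00172) and RPL30 (0.22 ± 0.06, adjusted p = 0.0473). RPL1A and RPL1B share most of their sequence, so they may not be separate observations.

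The 14 large subunit deletions also show what the remaining copy did. The deleted gene had its lowest value of all strains in 10 of them. RPP1A was second lowest in its deletion, after the library labelled PEP8. The other 3 were RPL19B at -0.37 against a median of 0.11 in other strains, RPL16B at -1.03 against -0.51 and RPL8A at -1.44 against -0.79. In the RPL9A deletion RPL9B reached 1.78, the highest of all strains, against a median of 0.23 in the other strains (SD 0.37). In the RPL19A deletion RPL19B was at 0.69, again the highest, against a median of 0.10 (SD 0.30). RPP1B was at 0.43 in the RPP1A deletion, rank 11 of all strains, against a median of -0.24, but RPP1B lies on chromosome IV, which was raised by 0.81 in that strain.

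The rest of the copies stood closer to their medians or library groups. RPL37A was at 0.48 in the RPL37B deletion, 0.34 above its median and 0.25 above its library group mean. RPL37B was at -0.19 in the RPL37A deletion, 0.34 below its median but 0.02 above its library group mean. RPL11A was 0.31 above its median in the RPL11B deletion and rank 3 of the 96 strains of its library group. RPL6A was 0.22 above its median in the RPL6B deletion and RPL13B 0.09 above in the RPL13A deletion. As deviations from library group means these 2 copies were at -0.002 and 0.22. RPL21A was 0.90 above its median in the RPL21B deletion but 0.05 above its library group mean. The copies RPL8B, RPL16A, RPP2A and RPL19A were lower than their medians by 0.22, 0.19, 0.23 and 0.46 in the deletions of RPL8A, RPL16B, RPP2B and RPL19B. As deviations from library group means they were at -0.26, -0.24, -0.06 and -0.08. In total 8 of 13 copies were above their median, and 5 were below.

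In the remaining 5 classes limma called 0 members in both fits. Unadjusted p-values under 0.05 numbered 1 of 79 in the Elongator and URM1 deletions, 8 in Mediator and 10 in SWR1 and NuA4 deletions. They numbered 0 in the Rpd3 and Set3 deletions and 5 in the RNA polymerase II elongation deletions. The share of all genes under that threshold was not counted. The background share of genes called higher or lower in the first fit was 0.00% and 0.00% for Elongator and URM1, 0.0445% and 0.0222% for Mediator, 0.00% and 0.0222% for SWR1 and NuA4, 0.00% and 0.00% for Rpd3 and Set3, and 0.00% and 0.0222% for RNA polymerase II elongation. With the library group in the fit those shares were 0.0222% and 0.0222% for Elongator and URM1, 0.111% and 0.0667% for Mediator, 0.00% and 0.00% for SWR1 and NuA4 and for Rpd3 and Set3, and 0.0889% and 0.0222% for RNA polymerase II elongation. The median difference over members was -0.02 for Elongator and URM1, -0.07 for Mediator, 0.01 for SWR1 and NuA4, 0.04 for Rpd3 and Set3 and -0.03 for RNA polymerase II elongation. Over all genes it was -0.01, 0.08, -0.09, 0.03 and -0.06 for those classes as listed. The strain mean was -0.14 ± 0.07 in the Mediator deletions (SD, n = 6), against -0.05 ± 0.13 in the other deletions (SD). It was -0.07 ± 0.10 in the Elongator and URM1 deletions, -0.04 ± 0.06 in the SWR1 and NuA4 deletions, 0.00 ± 0.08 in the Rpd3 and Set3 deletions and -0.07 ± 0.05 in the elongation deletions. All 6 Mediator and all 6 elongation strains were below 0, but 2 of the 6 Mediator strains were above their library group mean, and 4 of the 6 came from library group 4. The transcript of the deleted gene was not lowered by 0.5 in the libraries labelled URM1, ELP6, SOH1, SRB2 and CSE2. The same held for those labelled EAF1, YAF9, SNT1, UME6, DST1 and CTK1. In the SRB8, SSN2, RTR1 and CDC73 deletions it was not measured. The absence of calls is limited by such libraries and by the 5 or 6 strains of each class.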

How the data were processed

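PolyA RNA of 328 deletion strains was sequenced, with 1 library per strain, and the authors deposited log2 ratios of each deletion strain to wild type in a table of 255 strains and a table of 73. The log base was read from the values and is not stated. Bowtie is named in the submitters' processing notes; counting rules and genome build are not given there, and depth per library is unknown. The second table has no gene names and was matched by row, with gene means correlating at 0.979 between tables. A strain's own deleted gene was set to missing. Of 4922 genes with a value, 4499 with values in 80% of strains were tested with limma 3.58.1 (R 4.3.3), with Benjamini-Hochberg adjustment over all of them and a threshold of 0.05. The script was tested on simulated data. Library groups came from a 4-part Gaussian mixture on 4 principal components of 2006 genes that encode no cytosolic ribosomal protein (scikit-learn 1.9.0), which held 48.3% of their variance. Members and lists were chosen with earlier results of these data known. Named genes were the called members of a comparison (at most 12 each way), the 6 highest and 6 lowest by median, SD and correlation, the 6 most unequal and 6 least correlated pairs, deleted members and their copies, single-copy genes and stalk genes. Single strains and members outside this rule, such as RPL36B and RPL4B, were chosen after their values were seen. Promoters and coding sequences were read from R64 with Biopython 1.88. Alternatives covered the variance model, centring, gene filters, tables, library groups, doubtful libraries and leaving out each strain. Values of 1 member and 1 deletion strain are not reported here by name, though both entered every fit and count.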

Additional observations from a re-analysis of the deposited data

Results flagged for a closer look

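There were 3 genes that differed between small subunit and large subunit deletions by a direct test of that difference. RPL8A was higher in the small subunit deletions by 0.663 on the log2 scale, RPL1A by 0.315 and RPL1B by 0.256. RPL1A and RPL1B share most of their coding sequence, and how shared reads were assigned was not tested. In 8 Dixon gap tests on groups of 5 to 7 strains, 0 strains passed as outliers. The tests covered the strain mean over members in each class of that size, and RPL8A and RPL9B in the assembly deletions. With so few strains a gap had to exceed 0.568 to 0.71 of the range, so these tests cannot show that a class is uniform.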

How the results depend on the processing

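The count of members called in the small subunit deletions was 5. It was 8 with the first table only, 10 with genes measured in every strain and 9 after dropping strains with an unlowered deleted gene. With the library group as a term it was 25, 35 when each strain was also centred on its median, 25 with the copy of the deleted gene missing, 29 without the ASF1, CSF1 and RFU1 libraries and 23 without the libraries labelled PEP8, RPO41, YPL080C and YLR184W. Leaving out single strains gave 3 to 29 members over both fits. Of all genes called, 18.4% were higher; the share was 45.7% with centring, 31% with the library group and 65.7% with both. In the large subunit deletions the count of 1 became 2 with the copy missing, the first table only, complete genes, every fit with the library group, or without strains with an unlowered deleted gene or a shifted chromosome, and was 1 to 2 leaving out strains (2 without RPL16B, RPL19B, RPL21B, RPL9A or RPP1A). In the assembly deletions 0 became 1 in every fit with the library group, with the table as a term and after dropping strains with an unlowered deleted gene, and was 0 to 1 leaving out strains. Small against large subunit deletions gave 3 calls, 1 with the first table, and with the library group 7, 10 with centring, 8 with the copy missing, 9 without the 3 libraries and 7 without the 4, and 1 to 11 leaving out strains. The cause of these changes was not tested.

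RPL29 (-0.029) and RPL35A (-0.002) changed sign in the small subunit deletions: to 0.044 and 0.07 with centring, 0.239 and 0.204 with the library group, 0.285 and 0.25 with both, 0.239 and 0.204 with the copy missing, 0.234 and 0.2 without the 3 libraries, 0.237 and 0.205 without the 4, and 0.013 for both after dropping strains with an unlowered deleted gene. Without shifted chromosomes RPL3 was at -0.009 and RPL34B at -0.05. Leaving out strains gave -0.108 to 0.253 for RPL29, -0.038 to 0.223 for RPL35A, -0.031 to 0.152 for RPL3 and -0.027 to 0.169 for RPL34B. Set against the strain median, strain means were -0.954 for THP1, -0.63 for SAC3, -0.435 for RPP2B, -0.415 for MEH1, -0.436 for GCR2, 0.422 for CBF1, 0.355 for RPS24A, 0.445 for YJL218W, 0.43 for PIH1, 0.462 for KGD1, 0.478 for GPB2, 0.51 for RHO4 and YJR015W, 0.446 for RPS4B and 0.464 for RPS1B.

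No paired analysis was possible because replicate numbers follow accession order and pair no strains. Depth is unknown, so counting error could not be given. Library groups were defined from the same libraries, and their origin is unknown.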
